A study of Mus musculus with 4 samples.

Results

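Chga, Gria2 and Khdrbs2 are genes best known from neurons and neuroendocrine cells, and their RNA was measured here in hematopoietic stem cells (HSCs) of mouse bone marrow together with that of their nearest relatives. The 8 genes described are Chga, the AMPA receptor subunit genes Gria1, Gria2, Gria3 and Gria4, and the RNA-binding protein genes Khdrbs1, Khdrbs2 and Khdrbs3, out of 24016 gene symbols counted. Chga, Gria2 and Khdrbs2 were selected on their counts in these same libraries, by the size of the difference between NHD13 and WT, so their values are a description and support nothing further, and the other 5 were taken because they belong to the same families. All 8 were in the count tables, and 7 passed the filter on low counts. Gria1 did not.

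There were 2 libraries of NHD13 cells and 2 of wild-type (WT) cells. The NHD13 transgene encodes a fusion of NUP98 with HOXD13. It is driven by regulatory elements of the Vav1 gene that are active throughout blood cells, and the mice serve as a model of myelodysplastic syndrome. All animals were C57BL/6 mice aged 4 months, and cells of either genotype were sorted from marrow as lineage-negative, Sca-1+, c-Kit+, CD34-, Flt3- and CD150+. RNA (10 ng per library) was amplified with a low-input cDNA kit before sequencing. Whether each library stands for its own mouse, a pool or a repeat of the same RNA is not stated in the labels; errors and p-values therefore cover library-to-library spread, which may be technical.

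With 1 transcript per gene the NHD13 libraries held 35025974 and 48423689 counts, and the WT libraries 42664018 and 37070939. Across the 14853 genes tested, 636 (4.28 percent) passed an adjusted p of 0.05 by edgeR's quasi-likelihood test with Benjamini-Hochberg adjustment, 2.07 percent higher and 2.22 percent lower in NHD13. Of the sort genes, Kit was at 991 and 1122 CPM (counts scaled to a common library total) in NHD13 and 1129.9 and 1270.9 in WT, and Slamf1, which encodes CD150, was at 143 and 117 CPM in NHD13 and 119 and 134 in WT. The other sort genes were less alike in the groups. Ly6a, for Sca-1, was at 131 and 77.7 CPM in NHD13 and 273 and 200.2 in WT (log2 fold change -1.18 ± 0.30, adjusted p 0.0921 by edgeR), and Cd34 was at 51.6 and 21.4 CPM in NHD13 and 120 and 138 in WT (-1.82 ± 0.42, adjusted p 0.0796 by edgeR). Flt3 was at 59.0 and 4.33 CPM in NHD13 and 10.4 and 15.4 in WT. The libraries of a group were uneven for genes of other blood cells. For S100a8, a granulocyte gene, the NHD13 libraries gave 639.9 and 80.1 CPM and the WT libraries 78.7 and 69.9. For the T cell gene Cd3e they gave 0.728 and 36.3 CPM in NHD13 and 0.713 and 0.493 in WT. Hlf, a stem cell transcription factor gene, was the 1 of 8 HSC and gate genes called, and it was lower in NHD13. Its log2 fold change was -1.72 ± 0.24 (adjusted p 0.0373 by edgeR), and the call was lost without either WT library. In sorted bulk cells, a change in the number of cells that hold an RNA and a change in the RNA per cell cannot be told apart.

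Chromogranin A, the product of Chga, is an acidic protein packed with hormones and amines into dense-core secretory granules, and is cut into smaller signalling peptides. AMPA receptors are glutamate-gated ion channels built as tetramers of the subunits GluA1 to GluA4, encoded by Gria1 to Gria4, and carry fast excitatory signals between neurons. The GluA2 subunit, whose messenger is edited by the RNA deaminase Adarb1, sets the low calcium permeability of the channel. Khdrbs1 (Sam68), Khdrbs2 (SLM-1) and Khdrbs3 (SLM-2, or T-STAR) encode proteins of the STAR family, which bind RNA through a KH domain and control alternative splicing, among others of the neurexin genes in brain. Khdrbs1 is made in most tissues, whereas Khdrbs2 and Khdrbs3 are best known from the nervous system and, for Khdrbs3, testis.

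The promoters of the 3 genes that were near absent in WT are shown because these genes stood high together in NHD13. The RefSeq table of build GRCm38.p6 held windows from 250 bases before to 50 bases after the annotated gene start for 4 of the 8 genes, the fourth being Gria4. The counts were made on build mm9, and the windows were matched by gene symbol. Each window is written 5' to 3' on the strand of its gene, namely chr12:102554691-102554990 (plus strand) for Chga, chr3:80802786-80803085 (minus strand) for Gria2 and chr1:32172472-32172771 (plus strand) for Khdrbs2. Capitals mark a match, on either strand, to a searched motif.
Chga: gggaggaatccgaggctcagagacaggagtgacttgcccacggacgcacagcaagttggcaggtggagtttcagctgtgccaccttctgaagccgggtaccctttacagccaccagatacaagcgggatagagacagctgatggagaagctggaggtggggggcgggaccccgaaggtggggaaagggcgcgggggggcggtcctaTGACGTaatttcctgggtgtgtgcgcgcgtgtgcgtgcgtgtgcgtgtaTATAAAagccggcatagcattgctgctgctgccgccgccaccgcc
Gria2: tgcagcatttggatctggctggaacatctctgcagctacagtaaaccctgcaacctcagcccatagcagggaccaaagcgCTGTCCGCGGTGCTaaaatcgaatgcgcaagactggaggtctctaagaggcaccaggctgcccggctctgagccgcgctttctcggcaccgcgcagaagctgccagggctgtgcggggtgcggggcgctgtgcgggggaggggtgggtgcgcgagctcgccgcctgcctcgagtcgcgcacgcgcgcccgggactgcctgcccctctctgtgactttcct
Khdrbs2: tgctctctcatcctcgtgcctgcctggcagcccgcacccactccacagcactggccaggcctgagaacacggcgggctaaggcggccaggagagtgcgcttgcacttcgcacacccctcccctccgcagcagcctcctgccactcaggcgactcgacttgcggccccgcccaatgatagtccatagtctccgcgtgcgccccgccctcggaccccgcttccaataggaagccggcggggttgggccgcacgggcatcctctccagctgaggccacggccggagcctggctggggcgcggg

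Motifs searched on both strands, none overlapping another in these windows, were the core of the cyclic AMP response element (TGACGT), the TATA box (TATAAA), the element bound by the neuronal gene repressor REST (RE1) and a site preferred by posterior Hox proteins (CAATAAA). The Chga window held TGACGT at positions -44 to -39 from the annotated start and TATAAA at positions 6 to 11. Among 32817 promoter windows of the same length, 7.51 percent held the first and 13.6 percent the second. The Gria2 window held an RE1 match on the opposite strand, CTGTCCGCGGTGCT, at positions -170 to -157. An RE1 match occurred in 17 of the 32817 windows (0.0518 percent). The Khdrbs2 and Gria4 windows held none of these letters, and CAATAAA, found in 4.6 percent of windows, was in none of the 4. The GC content was 62.0 percent for Chga, 65.7 percent for Gria2, 70.3 percent for Khdrbs2 and 59.7 percent for Gria4, against a median of 52.7 percent over all windows. A match describes the sequence only.

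Chga had 258 and 316 counts in the NHD13 libraries and 0 and 0 in the WT libraries. This came to 7.51 and 6.45 CPM in NHD13, a mean of 6.98 ± 0.749 (SD, n = 2 libraries per group, here and below), while WT was at 0. Each NHD13 library held the RNA at a similar level and no WT library held a single count. With WT set to a floor of 3 counts over the group (0.0375 CPM), Chga was at least 184-fold higher in NHD13.

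Gria2 had 645 and 1077 counts in NHD13 libraries and 0 and 3 counts in WT libraries. In CPM these were 18.8 and 22.0 in NHD13, a mean of 20.4 ± 2.27, and 0 and 0.0821 in WT. The groups lay far apart and the NHD13 libraries close together. The ratio of NHD13 to WT counts, scaled for depth, was 551, with an exact 95% counting interval of 188 to 2675 that covers counting error only.

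Khdrbs2 had 237 and 389 counts in NHD13 libraries and 2 and 0 in WT libraries. The level was 6.90 and 7.94 CPM in NHD13, a mean of 7.42 ± 0.736, against 0.0460 and 0 CPM in WT. The depth-scaled ratio was 301, with a 95% counting interval of 82.8 to 2487. As with Chga and Gria2, no library of one group came near those of the other.

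**Figure D1:**
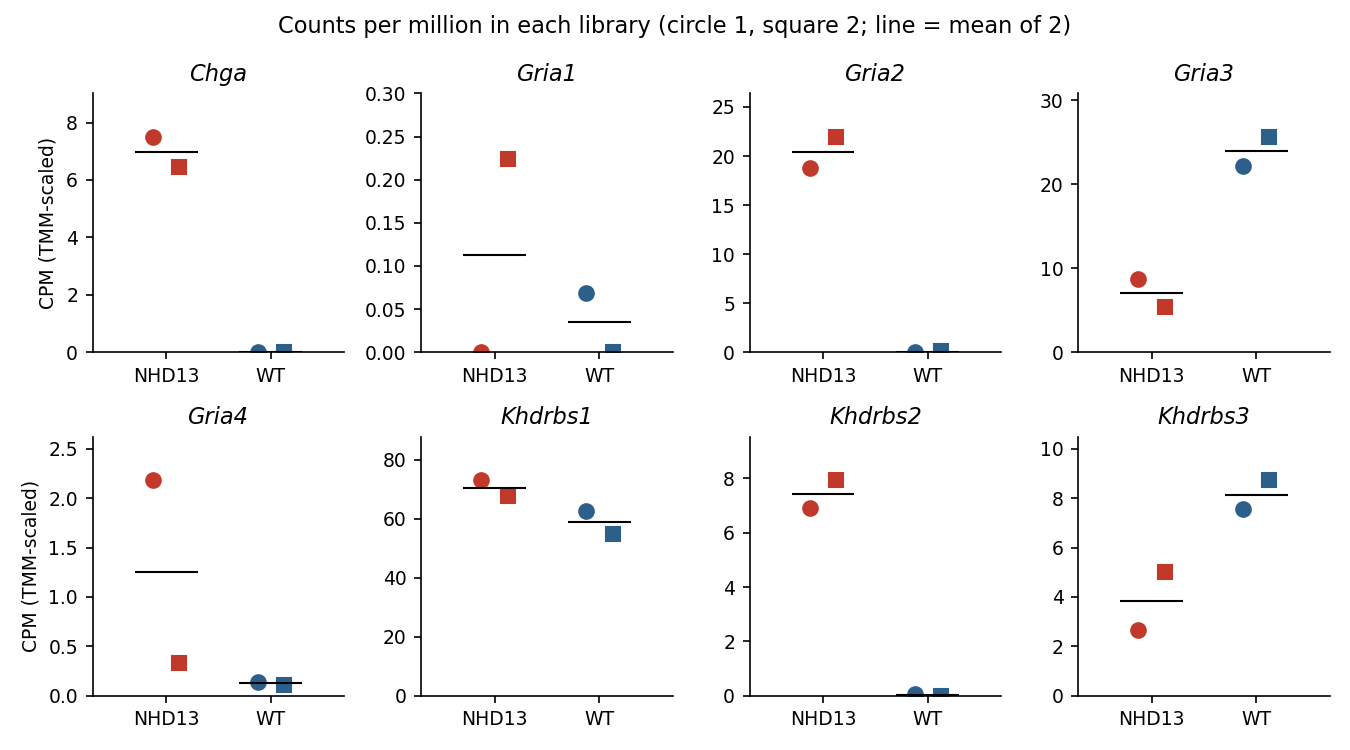
Level of each of the 8 genes in CPM (vertical axis, linear, its own scale for each gene) in the 2 NHD13 libraries (red) and the 2 WT libraries (blue); circles are library 1, squares library 2, and lines the means. Chga, Gria2 and Khdrbs2 sit at 6.45 CPM or more in each NHD13 library and at or near 0 in WT, Gria3 and Khdrbs3 are lower in NHD13, and Gria4 stands high in NHD13 library 1.

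The pattern of Chga, Gria2 and Khdrbs2 was shared by few other genes. Of the 14853 genes tested, 5 (0.0337 percent) had at most 3 counts over WT and at least 100 in each NHD13 library. Besides these 3 they were Meox2, a homeobox gene, with 220 and 411 counts in NHD13 and 2 and 0 in WT, and Susd5, with 571 and 106 counts in NHD13 and 0 and 0 in WT. This pair of limits was set after the values were seen. The reverse pattern, at most 3 counts over NHD13 and at least 100 in each WT library, was held by 4 genes (0.0269 percent).

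In the fit across all genes these were the values of the contrast that the genes were chosen for. The fitted log2 fold changes were 11.16 ± 0.68 (SE) for Chga, 8.96 ± 0.72 for Gria2 and 8.07 ± 0.79 for Khdrbs2, which ranked 2, 5 and 12 from the top of the genes tested. They depend on the prior count that stands in for absent reads: at a prior count of 2 they were 7.17, 7.87 and 6.67. By edgeR the adjusted p was 0.0153, 0.0136 and 0.0193, each under the threshold of 0.05. With 1 NHD13 or WT library left out, the adjusted p missed 0.05 in most fits. Without NHD13 library 1 it was 0.0544 for Chga, 0.079 for Gria2 and 0.0664 for Khdrbs2, without WT library 1 it was 0.117, 0.063 and 0.117, and without WT library 2 it was 0.106, 0.0722 and 0.113. Without NHD13 library 2 it was 0.0326, 0.0476 and 0.0456. Neither fit that left out a WT library called any gene by edgeR, although 2332 and 2605 genes were at p under 0.05 before adjustment and DESeq2 called 960 and 984.

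**Figure D2:**
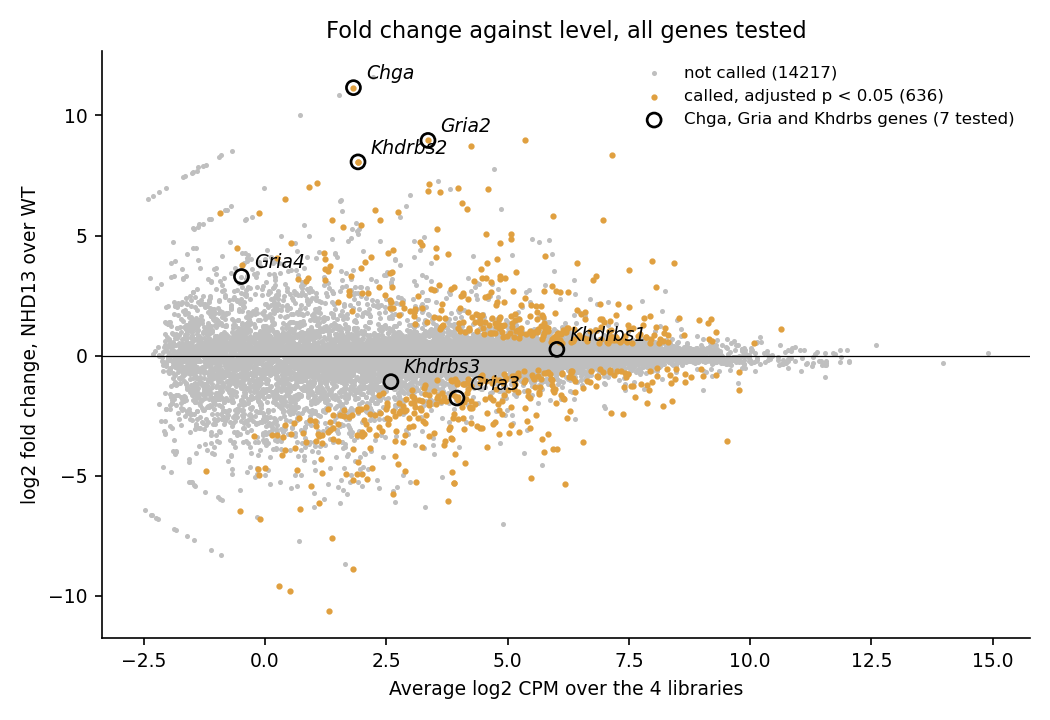
Average log2 CPM over the 4 libraries (horizontal axis) against the fitted log2 fold change of NHD13 over WT (vertical axis) for the 14853 genes tested, with the 636 called genes in orange and the 7 tested genes of the families circled. Chga, Gria2 and Khdrbs2 lie at the upper edge at log2 fold changes of 11.16, 8.96 and 8.07, whereas Gria3 and Khdrbs3 lie below 0.

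Among the AMPA receptor genes, Gria2 and Gria3 differed in opposite directions. Gria3, which encodes the GluA3 subunit, had 298 and 266 counts in NHD13 and 964 and 937 in WT. These were 8.67 and 5.43 CPM in NHD13, a mean of 7.05 ± 2.29, against 22.2 and 25.6 CPM in WT, a mean of 23.9 ± 2.46. Every NHD13 library lay well below every WT library. The log2 fold change was -1.76 ± 0.27, with an adjusted p of 0.0437 by edgeR. The adjusted p was 0.0463 without NHD13 library 1, 0.0459 without NHD13 library 2, 0.226 without WT library 1, 0.223 without WT library 2, and 0.0538 with the transcripts of each gene summed.

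The remaining AMPA receptor genes were low. Gria4, for the GluA4 subunit, had 75 and 16 counts in NHD13 and 6 and 4 in WT, or 2.18 and 0.327 CPM against 0.138 and 0.109. NHD13 library 1 held most of it. Its log2 fold change of 3.29 ± 1.10 did not pass the threshold (adjusted p 0.148 by edgeR), and without NHD13 library 1 it was 1.39 ± 1.42. Gria1, for the GluA1 subunit, had 0 and 11 counts in NHD13 and 3 and 0 in WT, too few to be tested.

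In the Khdrbs family, Khdrbs1 and Khdrbs3 were present in all libraries. Khdrbs1 had 2514 and 3325 counts in NHD13 and 2729 and 2008 in WT, or 73.2 and 67.9 CPM against 62.7 and 55.0. The NHD13 libraries were slightly higher, by a log2 fold change of 0.26 ± 0.11 that was not called (adjusted p 0.227 by edgeR). Khdrbs3 had 91 and 246 counts in NHD13 and 329 and 319 in WT, or 2.65 and 5.02 CPM against 7.56 and 8.73. Its log2 fold change of -1.08 ± 0.38 was not called either (adjusted p 0.160 by edgeR, 0.0816 by DESeq2). The NHD13 libraries lay below those of WT but differed from each other by nearly as much as the higher of them from WT. For none of the 7 tested members did the 2 libraries of a group overlap those of the other. In NHD13, 5 of them were higher and 2 lower. Of all genes tested the same was true of 60.4 percent, 30.1 percent higher and 30.3 percent lower. Chga, Gria2 and Khdrbs2 were selected on this difference, so their part in the count was set in advance.

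Levels of different genes were compared per kilobase of transcript, with lengths of the matching GENCODE M21 transcripts, which may differ from those of the annotation used for counting. In NHD13 cells Gria2 stood at 5.06 ± 0.564 CPM per kilobase with the 4026-base transcript and at 1.96 ± 0.219 with the 10371-base one, and Gria3 at 1.36 ± 0.443, so the order of Gria2 above Gria3 held for either length, though with the longer transcript the lowest Gria2 library (1.81) was close to the highest Gria3 library (1.68). In WT cells Gria3 stood at 4.62 ± 0.476 CPM per kilobase, and Gria2 at 0.0102 ± 0.0144 with the shorter transcript. Khdrbs1 had the highest level per kilobase of the 8 genes, 18.9 ± 1.004 in NHD13 and 15.7 ± 1.47 in WT. In NHD13 Khdrbs2 followed Khdrbs1 at 3.25 ± 0.323 and Khdrbs3 was at 2.03 ± 0.889. In WT Khdrbs2 was at 0.0101 ± 0.0143 and Khdrbs3 at 4.32 ± 0.437. Chga in NHD13, at 3.71 ± 0.398 CPM per kilobase, did not stand apart from Khdrbs2 beyond the spread of the libraries.

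**Figure D3:**
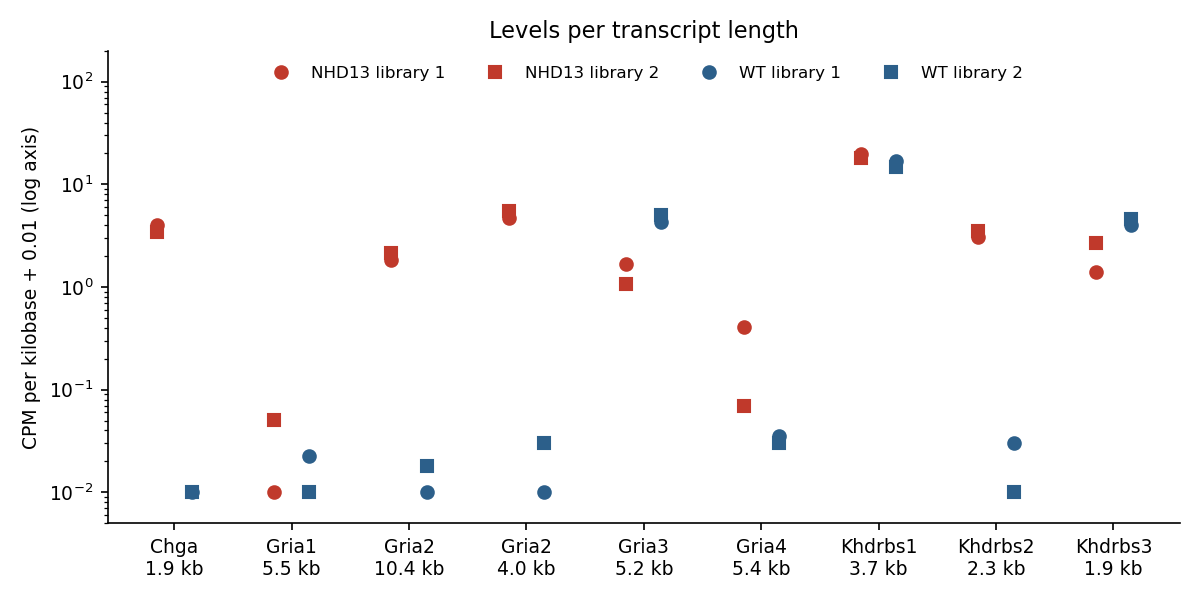
Level per kilobase of transcript (CPM per kilobase plus 0.01, log axis) of the 8 genes in each NHD13 library (red) and WT library (blue), with the transcript length used under each name; Gria2 is shown for its 10.371-kb and its 4.026-kb transcript. In NHD13 Gria2 sits above Gria3, and in WT Gria3 sits at 4.62 CPM per kilobase with Gria2 near 0.

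The transcripts of a gene shared most of their reads. Of Gria2, transcripts NM_013540 and NM_001083806 had nearly the same counts (645 and 1077 against 645 and 1074 in NHD13), and NM_001039195 had 416 and 700, which is 64.5 and 65.0 percent of the first. The Gria3 transcript NM_001290451 held 71.8 and 71.8 percent of the counts of NR_104053 in NHD13 and 73.0 and 74.4 percent in WT. The shares of Gria3 transcripts were close in the groups while their level differed. Of Khdrbs1, NR_045036 held 52.5 and 55.6 percent of the counts of NM_011317 in NHD13 and 56.1 and 52.6 percent in WT. In GENCODE M21 no gene overlapped Chga or Khdrbs1, and 1 same-strand, non-coding gene overlapped Gria2, while 8 genes overlapped the long Khdrbs2 gene, 4 of them on the opposite strand. Of these, Gm5415 and Gm9839 were counted, with 7 and 26 counts for Gm5415 in NHD13 and 3 and 1 in WT, far fewer than Khdrbs2 in NHD13.

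Among the genes examined next to the 3 loci, or within Khdrbs2, none had at least 100 counts in each NHD13 library with at most 3 in WT. Next to Chga, Golga5 had a log2 fold change of 0.39 ± 0.10 (adjusted p 0.0927 by edgeR) and Lgmn of -0.04 ± 0.57, neither called, Gm20604 was at -0.13 ± 0.09 and not called, and Itpk1, an inositol phosphate kinase gene, had 3959 and 5331 counts in NHD13 and 2581 and 1638 in WT. Itpk1 rose by 1.10 ± 0.16 (adjusted p 0.0389 by edgeR, and 0.0619 to 0.164 with any 1 library left out). Near Gria2, Rxfp1 had 0 and 2 counts in NHD13 and 0 and 0 in WT, and Glrb had 0 and 6 in NHD13 and 11 and 7 in WT. Tmem144 was at -0.68 ± 0.60 and was not called. Pdgfc, a growth factor gene, had 25 and 123 counts in NHD13 and 1365 and 930 in WT and fell by 4.10 ± 0.59 (adjusted p 0.0389 by edgeR, 0.0275 without NHD13 library 1, 0.0167 without NHD13 library 2, 0.223 without WT library 1 and 0.187 without WT library 2). Near Khdrbs2, Ptp4a1 had a log2 fold change of -0.00 ± 0.10 and Lgsn had 2 and 0 counts in NHD13 and 4 and 0 in WT. The next genes by start position, Gm9839 and Gm5415, overlap Khdrbs2, so no gene beyond its far end was examined. Gm9839 had 1 and 7 counts in NHD13 and 0 and 0 in WT. Gm5415, given above, also had more counts in NHD13, and both genes had too few to be tested.

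The genes most like Chga, Gria2 and Khdrbs2 were found by the root mean square difference of centred log2(CPM + 0.5) over the 4 libraries. For Chga they were Hoxc6 (0.0636), Mpo (0.116), Khdrbs2 (0.147), Plac8 (0.151) and Meox2 (0.206). For Khdrbs2 they were Meox2 (0.0621), H19 (0.105), Rftn2 (0.111), Chga (0.147) and Mpo (0.179). For Gria2, at a higher level, they were Cd48 (0.209), Hoxc4 (0.365), Eya4 (0.374), Pgm5 (0.399) and Hoxc8 (0.446), and Khdrbs2 was 15th in likeness to it at 0.687. Since 0.5 CPM is added, a gene absent in WT and a gene merely lower there can look alike: Mpo, for example, was at 709 and 587 CPM in NHD13 and 49.0 and 39.2 in WT. Meox2 was close to Khdrbs2 in level too, at 6.40 and 8.39 CPM in NHD13 and 0.0460 and 0 in WT.

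By edgeR, other neural genes were called about as often as genes at large. In 8 lists of related genes, 73 of 126 members were tested and 3 were called, which is 4.11 percent, near the 4.28 percent of all genes. All 3 were lower in NHD13 and none was higher. At an unadjusted p under 0.05 by edgeR there were 23 of 73, 6 higher and 17 lower, against 3983 of 14853 over all genes. DESeq2 called 19 of 73, 4 higher and 15 lower, against 2604 of 14853. Both shares were larger than over all genes, and no set test was run. The same counts over all genes apply to each list below. The median log2 fold change over the 73 was -0.02, and over all genes tested 0.00.

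The dense-core granule genes held 2 of the called genes. Slc18a2, the vesicular transporter that loads monoamines into granules, was at 111 and 116 CPM in NHD13 and 256 and 286 in WT and fell by 1.26 ± 0.10 (adjusted p 0.0136 by edgeR). Cadps2, a priming factor for granule release, was at 2.59 and 3.65 CPM in NHD13 and 12.5 and 15.1 in WT and fell by 2.14 ± 0.28 (adjusted p 0.0324 by edgeR). The call of Slc18a2 was lost without WT library 1 (adjusted p 0.119) or WT library 2 (0.122), and that of Cadps2 without these (0.208 and 0.202) or NHD13 library 1 (0.0691). The other 5 of the 7 tested members were not called. The other granin genes had too few counts to be tested. Scg5 had 0 and 3 counts in NHD13 and 56 and 2 in WT, Scg3 had 5 and 4 in NHD13 and 13 and 2 in WT, and Vgf had 0 and 2 in NHD13 and 2 and 1 in WT. Chgb had 2 and 11 counts in NHD13 and 4 and 0 in WT, and Scg2 had 0 and 7 in NHD13 and 7 and 0 in WT. The prohormone-cutting enzyme gene Pcsk1 had no count in NHD13 and 30 and 0 in WT, and Pcsk2 had 0 and 2 in NHD13 and 22 and 0 in WT.

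None of the other glutamate receptor genes was called. Of 14 kainate, NMDA and delta receptor genes 4 were tested, and of 8 metabotropic receptor genes 3 were tested, with median log2 fold changes of 0.26 and -0.79. Grik5, a kainate receptor subunit gene, had the highest level of the first list in NHD13, at 3.58 and 3.12 CPM against 1.63 and 3.12 in WT, and Grin2d had its smallest adjusted p (0.432 by edgeR). Grm8 was at 0.553 and 0.673 CPM in NHD13 and 0.0460 and 0 in WT, with a log2 fold change of 4.49 ± 1.08 (adjusted p 0.0850 by edgeR). At an unadjusted p under 0.05 there were 0 in the first list and 1 in the second.

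Partners of AMPA receptors were not called either, in 0 of 13 tested genes, with 4 at an unadjusted p under 0.05 by edgeR and 3 called lower by DESeq2. Dlg3, which encodes a synaptic scaffold protein, had the smallest adjusted p, 0.0619, at 10.4 and 12.0 CPM in NHD13 and 19.3 and 21.9 in WT. Adarb1, the editor of the Gria2 messenger, was at 5.59 and 6.55 CPM in NHD13 and 10.99 and 9.47 in WT, with a log2 fold change of -0.75 ± 0.23 (adjusted p 0.123 by edgeR). The auxiliary subunit genes Cacng2, Cacng3, Cacng4, Cacng5, Cacng7 and Cacng8, which anchor AMPA receptors at synapses, each had 4 counts or fewer in every library.

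Splicing regulators related to Khdrbs2 and the neurexin genes that its family is known to control in brain were examined next. Of 14 tested STAR and neural RNA-binding genes none was called by edgeR, with 3 at an unadjusted p under 0.05 and 3 called lower by DESeq2. Elavl4, a neuronal RNA-stabilising protein gene, had the smallest adjusted p (0.0630), at 0.378 and 0.367 CPM in NHD13 and 1.68 and 2.65 in WT. Qk, of the same STAR family, had a log2 fold change of 0.21 ± 0.18. Of 8 tested neurexin, neuroligin and related genes, Nlgn3, encoding a postsynaptic partner of neurexins, was called: it was at 0.262 and 0.265 CPM in NHD13 and 2.55 and 2.55 in WT and fell by 3.26 ± 0.45 (adjusted p 0.0368 by edgeR). It missed the threshold without NHD13 library 1 (0.115), NHD13 library 2 (0.0648), WT library 1 (0.218) or WT library 2 (0.197). Others of the list were higher in NHD13 without being called: Lrrtm4 had 20 and 49 counts in NHD13 and 1 and 0 in WT (5.69 ± 1.06, adjusted p 0.0580 by edgeR), and Nlgn1 had 104 and 38 in NHD13 and 8 and 6 in WT (3.42 ± 0.86, adjusted p 0.0928 by edgeR). In this list 4 genes were at an unadjusted p under 0.05, and DESeq2 called 2 higher, Lrrtm4 (adjusted p 0.0166) and Nlgn1 (0.0109), and 2 lower.

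Markers of neurons and of neuroendocrine cells were then set beside Chga, Gria2 and Khdrbs2. Of 12 tested neuronal marker genes none was called by edgeR (5 at an unadjusted p under 0.05; 4 called lower and 1 higher by DESeq2), and the median log2 fold change was -0.88. Syp, a synaptic vesicle protein gene, had the smallest adjusted p (0.0525), with 28 and 49 counts in NHD13 and 251 and 133 in WT. Members that were not tested went either way. Gap43 had 47 and 11 counts in NHD13 and 0 and 0 in WT, and Nefl had 0 and 12 in NHD13 and 194 and 8 in WT. The summed level of 8 defining neuron markers was 2.76 and 4.35 CPM in NHD13 and 86.0 and 6.95 in WT. Rbfox3, the marker of mature neurons, had 0 and 7 counts in NHD13 and 2 and 0 in WT. Most of the sum in WT library 1 was Stmn2, with 2974 counts there, 2 in WT library 2 and 1 and 10 in NHD13. Of 7 markers of sympathetic nerve and neuroendocrine cells, Th had 0 and 7 counts in NHD13 and 3 and 0 in WT, Dbh had none in NHD13 and 7 and 0 in WT, and the list summed to 0.291 and 10.8 CPM in NHD13 and 17.5 and 1.15 in WT. Where the sum was high it was nearly all Ddc, an enzyme gene of amine synthesis, with 6 and 501 counts in NHD13 and 718 and 26 in WT. The 6 Schwann and glial markers summed to 109.6 and 111 CPM in NHD13 and 127 and 142 in WT, nearly all of it Mbp, and Sox10 had 2 counts or fewer in every library. Chga stood at 7.51 CPM in NHD13 library 1, where the neuroendocrine sum was 0.291 CPM, and at 6.45 CPM in NHD13 library 2, where that sum was 10.8 CPM. Whether such cells add to the Chga counts was not tested.

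Markers of other blood cells were compared in the same way. The 6 late granulocyte markers summed to 2648 and 342 CPM in the NHD13 libraries (305 and 250 in WT), and T and NK cell markers to 156 and 180 (21.1 and 19.8 in WT), of which Cd3e, Cd3g and Gzmb were high in NHD13 library 2 alone. The 4 mast cell and basophil markers summed to 133 and 112 CPM in NHD13 and 9.15 and 7.01 in WT, with Ms4a2 at 111 CPM in NHD13 library 1 and Cpa3 at 107 in NHD13 library 2. Genes called in these lists included Nkg7 of the T and NK list and Cd79a of the B cell list, both higher. Fcer1a of the mast cell list was called lower. The adjusted p by edgeR was 0.0293 for Nkg7, 0.0454 for Cd79a and 0.0444 for Fcer1a. Nkg7 lost its call without either WT library, and Cd79a and Fcer1a lost theirs without any 1 library. The 5 B cell markers summed to 89.6 and 96.6 CPM in NHD13 and 73.6 and 80.8 in WT, the 4 erythroid markers to 34.3 and 37.4 in NHD13 and 32.0 and 14.6 in WT, and the 6 stroma and endothelium markers to 36.1 and 34.6 in NHD13 and 72.7 and 16.7 in WT. Chga, Gria2 and Khdrbs2 differed between the NHD13 libraries far less than S100a8, Cd3e or Ms4a2 did. The late granulocyte, T and NK cell, mast cell, B cell and erythroid sums, like these 3 genes, were higher in each NHD13 library than in either WT library, and their part in the result was not tested.

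Genes of the REST repressor complex, which silences many neuronal genes outside the nervous system, were examined last. Rest itself was at 36.9 and 40.8 CPM in NHD13 and 41.3 and 37.1 in WT, with a log2 fold change of -0.01 ± 0.13 (adjusted p 0.966 by edgeR). None of 12 tested genes of the list was called by edgeR, with 3 at an unadjusted p under 0.05 and 1 called higher and 1 lower by DESeq2. Rcor2, a corepressor gene, had the smallest adjusted p (0.0692), at 1.60 and 2.27 CPM in NHD13 and 6.37 and 5.39 in WT.

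**Figure D4:**
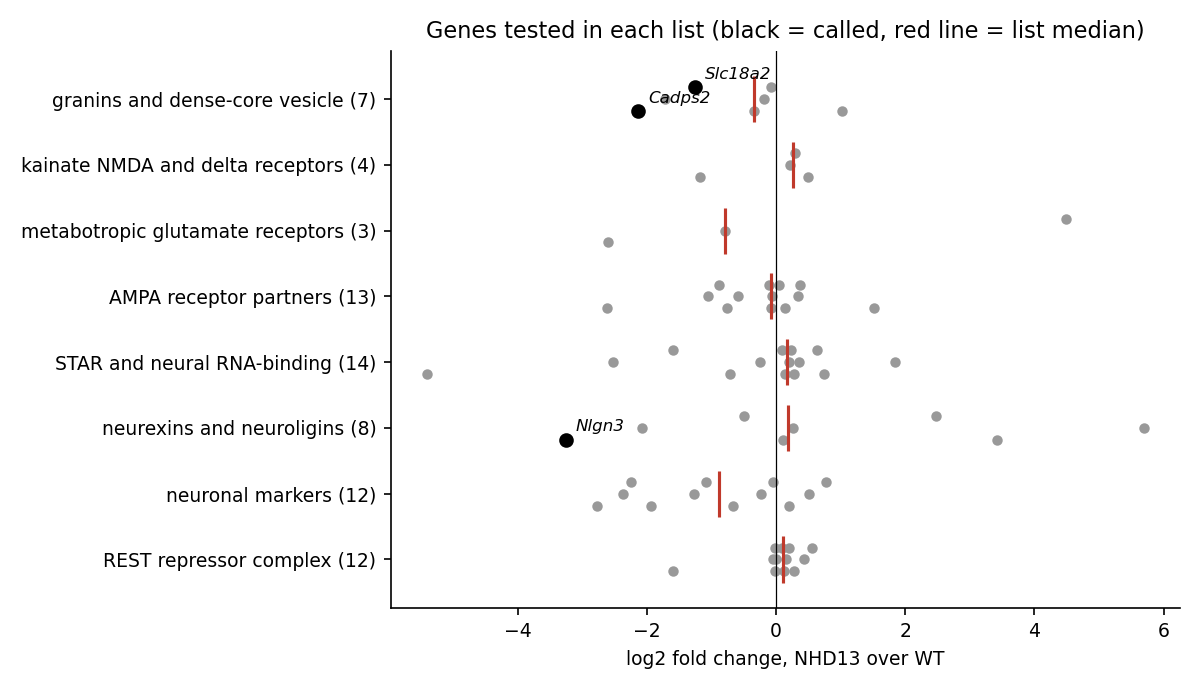
Fitted log2 fold change of NHD13 over WT (horizontal axis) of each tested gene in 8 lists, with the number tested in parentheses; black points passed an adjusted p of 0.05 by edgeR, grey points did not, and red lines are list medians. The 3 called genes, Slc18a2, Cadps2 and Nlgn3, lie left of 0, and list medians run from -0.88 to 0.26.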

How the data were processed

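RNA of the sorted cells was read as 75-base paired ends (HiSeq, per the labels' protocols), and Bowtie 0.12.2 and build mm9 are named in the submitters' processing notes. How reads were counted, and whether strand was used, is not given in the sources read here. The authors deposited raw counts for each RefSeq transcript, not normalised, in 1 table per library. From these, each symbol was given the transcript with the highest total over the 4 libraries. Counts were tested with edgeR 4.0.16 in R 4.3.3 after its default filter and TMM normalisation, with the robust form of its quasi-likelihood test, NHD13 over WT, and Benjamini-Hochberg adjustment over 14853 genes at a threshold of 0.05. CPM use the TMM-scaled library totals, and SEs were derived from the F statistic (absolute log2 fold change over its root). The spread between libraries of a group, which edgeR names the biological coefficient of variation, averaged 26.9 percent and may be technical. Libraries of a group differed by more than counting noise (mean chi-square per gene 47.1 in NHD13 and 28.9 in WT).

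The 8 genes and the lists were chosen with earlier results of these data known. Genes were named by rule: the called members of a list with the smallest adjusted p (up to 4), or the 1 with the smallest where none was called, and the 5 most similar in pattern. Other genes, among them Ly6a, Cd34, Flt3, Chgb, Scg2, Scg3, Scg5, Vgf, Lrrtm4, Nlgn1, Pcsk1, Pcsk2, Grik5, Grm8, Adarb1, Cacng genes, Qk, Rest, Meox2 and Susd5, and the neighbouring genes, which were taken by position, were chosen after the data were seen. Alternatives were other scalings, filters, thresholds and prior counts, DESeq2 1.42.0, limma-voom (limma 3.58.1), a non-robust fit, the replicate number as a block, summed transcripts and each library left out; the crossed pairing was added after seeing the data. The test was checked on simulated counts. Some genes of the lists are not reported here.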

Additional observations from a re-analysis of the deposited data

How the results depend on the processing

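For the 7 tested genes of the families, 89 fold changes recomputed under the alternatives kept their direction and side of the threshold, 15 kept their direction and lost the call, and none changed sign. Chga and Khdrbs2 missed the threshold with the replicate number as a block (log2 fold change 11.16, adjusted p 0.0638, and 8.11, adjusted p 0.0651), as did Gria3 (-1.80, adjusted p 0.0933); Gria2 was called there (adjusted p 0.0461), and no other call among these genes changed. The labels give the numbers no meaning. Replicate 1 minus replicate 2 correlated at -0.125 between groups over genes, and with the numbers crossed, 4 of the 7 genes were called as without a block. With each library left out the log2 fold change ran from 11.12 to 11.21 for Chga, 7.90 to 12.75 for Gria2, 7.25 to 11.21 for Khdrbs2 and -2.13 to -1.46 for Gria3.

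The number of genes called, 636, was 1138 without a filter, 1066 with at least 1 CPM in both libraries of a group, 2604 by DESeq2, 107 with the replicate block, 402 with summed transcripts, 47 at an adjusted p under 0.01, 1923 at 0.10 and 0 to 990 with a library left out. The 3 called genes of the neural lists became 7, 9, 19, 1, 5, 0, 16 and 0 to 3 in the same order; Lrrtm4 was the 1 called higher without a filter (adjusted p 0.0498). Gria4 was not tested under the stricter filter, and Gria1 had no main value to compare. The counts limit Gria1 and WT levels of Chga, Gria2 and Khdrbs2, where 3 counts over the group are 0.0375 CPM.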

Other observations

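The 4 genes with at most 3 counts in NHD13 and at least 100 in each WT library were Lrrn1, with 0 and 0 counts in NHD13 and 209 and 180 in WT, Isl1, with 0 and 2 in NHD13 and 211 and 194 in WT, Akr1c19, with 0 and 1 in NHD13 and 286 and 265 in WT, and Acss3, with 0 and 3 in NHD13 and 156 and 100 in WT. Lrrn1 encodes a leucine-rich repeat membrane protein of neurons and Isl1 a homeobox factor known from motor neurons and other cells. Genes with a known place in the nervous system were thus among those near absent from either group. They were picked after their values were seen.

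Some neural genes had most of their counts in WT library 1. Besides Stmn2, these included Nefl, a neurofilament gene, with 194 counts there, 8 in WT library 2 and 0 and 12 in NHD13, and the NMDA receptor gene Grin1, with 147 counts there, 3 in WT library 2 and 0 and 6 in NHD13.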
